A study of Drosophila melanogaster with 18 samples.

Results

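The genes described here are the long non-coding RNA genes with measurable RNA in fruit fly (Drosophila melanogaster) ovaries. A gene was included when its FlyBase symbol begins with lncRNA: or asRNA: (antisense RNA) and its mean level over the 18 libraries was at least 1 CPM (counts per 1e6 counts of the library). Genes on chromosome 4 and the mitochondrial genome were left out by the rule, which removed 4 genes past the level threshold. The rule took 123 genes (88 lncRNA: and 35 asRNA:) of 2440 genes with these prefixes in a table of 17611 genes. The genes were thus chosen by their mean CPM over all libraries, so their presence is not a finding. No comparison between groups was used in the choice. However, more of the libraries were from 12 °C than from 25 °C, so a gene high at 12 °C passed the threshold more easily. A gene high in a single group could also pass through that group. Just inside the threshold were CR45036 (1.01 CPM), CR45048 (1.02 CPM) and CR46473 (1.04 CPM), and just outside were flam (0.995 CPM), CR43943 (0.983 CPM) and CR43287 (0.976 CPM).

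Long non-coding RNAs are transcribed and often spliced and polyadenylated like messenger RNAs, but have no known long open reading frame. Some act in the nucleus as scaffolds for proteins, some are precursors of small RNAs, and some are transcribed across or beside a coding gene and can affect its expression. Most of the genes with CR numbers described here have no role that can be given with certainty. Hsromega is an exception: its nuclear transcripts organise the omega speckles, which hold hnRNP proteins, and it is induced by heat shock.

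Ovaries of 2 inbred wild-type lines were compared, HP (High Plasticity) and LP (Low Plasticity), with 3 libraries per group labelled as biological replicates. In each line, 1 group was in diapause, an arrest of egg production, at 12 °C, 1 group had stayed reproductive at 12 °C, and the age-control group was 28 days old and kept at 25 °C. The labels give the tissue as ovary of stages 1 to 7 for every group, and state an age for the 25 °C flies but none for the others. Each genetic background is a single line, and temperature cannot be told apart from state in any comparison with the age controls.

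Libraries held between 14352846 and 21343992 counted reads. The ovary markers of the germline (vas, osk and 5 others) summed to 3034 to 3081, 3271 to 3464 and 3803 to 3881 CPM in HP diapause, reproductive and age-control ovaries. In LP they summed to 2948 to 3128, 3253 to 3421 and 3785 to 4190 CPM in the same order. Of the 7 germline genes, 2 were higher and 4 lower in diapause than in age controls in HP, and 3 and 3 in LP. As a background for the marker counts, 34% of all tested genes were higher and 34.7% lower in HP diapause than in age controls, and 36.6% and 35.3% in LP. Of 15 late eggshell genes (chorion and vitelline membrane proteins, made by follicle cells in stages later than the labelled ones), 15 were lower in diapause than in age controls in each line. Their summed level ranged from 304 to 406 CPM in HP diapause, 1162 to 2011 CPM in HP reproductive and 5122 to 9461 CPM in HP age controls. In LP it ranged from 1105 to 2877 CPM in diapause, 3734 to 4889 CPM in reproductive and 10800 to 14710 CPM in age controls, with replicate 2 the highest of the diapause libraries. Of 13 muscle genes, 12 were higher in diapause than in age controls in HP and 11 in LP, and of 6 follicle cell genes, 6 were higher in HP and 5 in LP. The muscle genes summed to 1833 to 2029, 1586 to 1678 and 729 to 877 CPM in HP diapause, reproductive and age-control ovaries, and to 1670 to 1951, 1188 to 1543 and 1235 to 1518 CPM in LP. Of 10 haemocyte genes 7 were tested, with 4 higher in HP and 3 in LP, while the defining markers He, eater and NimC1 averaged 0.00827, 0.183 and 0.260 CPM. The haemocyte genes summed to 2151 to 2624, 2044 to 2273 and 1122 to 1349 CPM in HP and 1728 to 2273, 1613 to 1712 and 712 to 872 CPM in LP, in the same order. Most of this sum came from Col4a1, vkg and crq, which averaged 813, 545 and 232 CPM, against 2.08 CPM for Hml. It is therefore not a measure of haemocytes alone. The follicle cell genes summed to 530 to 593, 529 to 560 and 333 to 370 CPM in HP and 552 to 586, 477 to 535 and 242 to 308 CPM in LP. Of 4 tested genes each, 1 fat body gene was higher and 2 lower in HP diapause and 2 and 1 in LP, and 2 neuron genes were higher and 2 lower in LP diapause; of 2 tested testis genes 1 was lower in each line. The part of these cell types in the results below was not tested. In whole ovaries, a change in the number of cells of a type and a change in RNA per cell cannot be told apart.

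The 123 genes had low levels. Their median of the mean level was 2.28 CPM, against 47.7 CPM for the protein-coding genes past the same threshold, and 58 of them lay under 2 CPM. Their median exon length was 1300 bases against 2214 bases, and 53 (43.1%) had a single exon block against 8.90% of those coding genes. Chromosome X carried 33 of them (26.8%), whereas it carried 12.7% of all lncRNA: and asRNA: genes and 17.8% of the coding genes at or above 1 CPM. In 63 genes the group mean reached 1 CPM in all 6 groups, and in 2 genes it did so in 1 group. All 123 passed the filter on low counts and were tested among 9037 genes.

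Well-known long non-coding RNAs of other tissues and of males were mostly below the threshold. The dosage compensation RNAs roX1 and roX2, which coat the male X chromosome, averaged 0.219 and 0.0252 CPM. The bithorax complex RNAs bxd and iab8 averaged 0 and 0.105 CPM, and the precursor of the let-7 microRNA cluster, let7C, averaged 0.813 CPM. The precursor of somatic piRNAs in follicle cells, flam, lay just under the threshold, and the poly-A-selected libraries do not measure its piRNAs.

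Counting limited what could be seen of genes on opposite strands. Of 41 genes of 200 or more exon bases lying wholly inside exons of an opposite-strand gene at 10 CPM or more, 0 had any count in any library, and the same held for 0 of 40 genes inside same-strand exons. Reads in exon bases shared by genes were therefore counted for neither gene on either strand, and the counts of the 43 members that share exons with an opposite-strand coding gene come from their other exon bases. Reads from unspliced or opposite-strand RNA of an overlapping gene cannot be told apart there from reads of the non-coding gene. A total of 64 members shared no exon base with any gene. However, 24 members lay within the span of a coding gene without sharing its exons, 19 of them on the opposite strand. Reads from unspliced RNA of that gene cannot be told apart there either. The members that overlapped no coding gene numbered 42.

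Most of the long non-coding RNA counts came from a pair of genes, CR34335 and CR42862, and both were higher at 12 °C. In HP the summed level of the 123 genes, before TMM scaling, was 5161 ± 155.5 CPM in diapause (mean ± SD, n = 3 here and below), 4748 ± 89.1 CPM in reproductive ovaries and 3247 ± 147 CPM in age controls. In LP it was 4534 ± 20.9, 4213 ± 122 and 3186 ± 290 CPM in the same order. The age controls did not overlap the 12 °C groups of their line. CR34335 and CR42862 together made up 81.5% of the sum in HP diapause, 72.5% in HP age controls, 79.1% in LP diapause and 67.6% in LP age controls. Without them the sums were 955 ± 31.8, 925 ± 7.93 and 893 ± 12.3 CPM in HP, and 948 ± 26.9, 933 ± 66.9 and 1028 ± 16.6 CPM in LP. The order of these remaining sums depends on the scaling: with TMM scaling the group means were 1007, 951 and 851 CPM in HP and 998.7, 955 and 925 CPM in LP, lowest in the age controls of each line, whereas before scaling the LP age controls were the highest LP group.

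**Figure D1:**
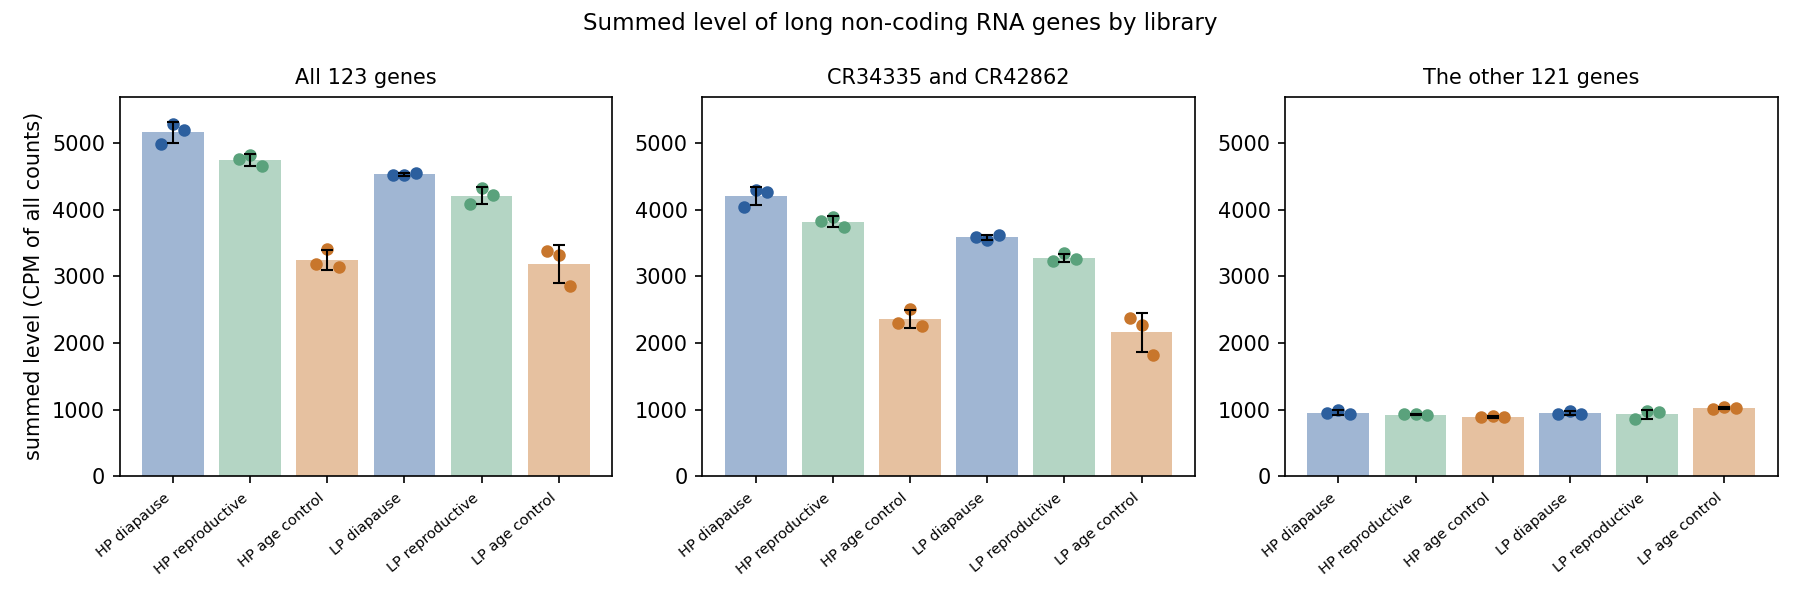
Summed level (CPM of all counts, y axis from 0) of all 123 genes, of CR34335 and CR42862, and of the other genes, in the 6 groups (x axis). Points are libraries, bars are means and error bars are SD over 3 libraries; the age controls are lowest in the first and second panels, while in the third panel, before TMM scaling, the group means lie between 893 and 1028 CPM.

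CR34335 is a single-exon gene of 361 bases on X (3545750 to 3546110, minus strand, coordinates as in the deposited table) and has the highest level of the 123 genes both in CPM and per kb of exon. It lies within the span, but outside the exons, of DIP-alpha, which encodes an immunoglobulin-domain cell surface protein and averaged 5.50 CPM. CR34335 had 2952, 3260 and 3017 TMM-scaled CPM in the HP diapause libraries, 2551, 2570 and 2482 CPM in HP reproductive and 1359, 1769 and 1367 CPM in HP age controls. In LP it had 2454, 2391 and 2421 CPM in diapause, 2165, 2044 and 2008 CPM in reproductive and 1435, 1291 and 1084 CPM in age controls. The order diapause, reproductive, age control held without overlap in each line. Against age controls, diapause was higher by 1.04 on the log2 scale in HP (SE 0.09, adjusted p = 7.3e-09, edgeR quasi-likelihood test with Benjamini-Hochberg adjustment over the 9037 genes, as for every adjusted p below unless another tool is named) and by 0.93 in LP (SE 0.09, adjusted p = 2.3e-08). CR34335 was also lower in LP than in HP in all 3 states, by -0.34 in diapause (adjusted p = 0.0072), -0.29 in reproductive ovaries (adjusted p = 0.020) and -0.24 in age controls (adjusted p = 0.045). The call in reproductive ovaries was lost without HP reproductive replicate 2 or LP reproductive replicate 2 or 3 (adjusted p = 0.0544 to 0.0643). The call in age controls was lost with total-count scaling (-0.16, adjusted p = 0.127), without a filter on low counts (adjusted p = 0.0563), in a fit to the groups compared (adjusted p = 0.265) and without HP age-control replicate 2 (-0.11, adjusted p = 0.249) or LP age-control replicate 2 (adjusted p = 0.0681) or 3 (adjusted p = 0.2).

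CR42862 (3L, 224106 to 230964, plus strand, 5485 exon bases) had 1298, 1284 and 1486 CPM in HP diapause, 1370, 1457 and 1362 CPM in HP reproductive and 799, 670 and 766 CPM in HP age controls. In LP it had 1354, 1300 and 1424 CPM in diapause, 1168, 1349 and 1345 CPM in reproductive and 757, 744 and 528 CPM in age controls. The diapause and reproductive libraries overlapped in each line, and both lay above the age controls. It rose in diapause against age controls by 0.86 in HP (SE 0.11, adjusted p = 1.1e-06) and by 1.01 in LP (SE 0.11, adjusted p = 1.3e-07). The third gene by CPM, CR40469 (X, 214 bases), had 228, 269 and 234 CPM in HP diapause, 191, 199 and 198 CPM in HP reproductive and 107, 135 and 103 CPM in HP age controls, without overlap. In LP its diapause libraries (217, 203 and 196 CPM) overlapped those of the reproductive group (152, 203 and 191 CPM). It rose in diapause against age controls by 1.08 (SE 0.12) in HP and 0.58 (SE 0.12) in LP.

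Not every abundant gene rose at 12 °C. CR46472 (X, 21520175 to 21527105, plus strand) had 32.7 ± 4.2 CPM in HP diapause, 32.5 ± 5.5 CPM in HP reproductive and 98.6 ± 9.4 CPM in HP age controls, and 51.5 ± 4.1, 51.0 ± 6.9 and 121 ± 19 CPM in LP. It fell in diapause against age controls by -1.59 (SE 0.14, adjusted p = 3e-08) in HP and -1.23 (SE 0.14, adjusted p = 3.7e-07) in LP. CR43685 (3R) fell by -0.51 and -0.42. CR45102 (X) and CR30055 (2R, within the span of Sin3A, a histone deacetylase scaffold) were each called in 1 line between diapause and age controls, CR45102 by 0.35 in LP (0.07 in HP, adjusted p = 0.41; in LP 0.12 and adjusted p = 0.128 with total-count scaling) and CR30055 by 0.34 in HP (-0.01 in LP, adjusted p = 0.91). For CR30055 the difference between the lines was itself called (-0.35, SE 0.11, adjusted p = 0.025), but not without HP diapause replicate 2 or 3, HP age-control replicate 1 or 3, LP diapause replicate 3 or LP age-control replicate 3 (adjusted p = 0.0542 to 0.0784).

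Between diapause and reproductive ovaries at the same temperature, few long non-coding RNAs differed. In HP 0 of the 123 genes were called, against 0.852% of all tested genes (0.199% higher and 0.653% lower in diapause). At an unadjusted p under 0.05 there were 16 (9 higher and 7 lower in diapause), beside 1451 of all 9037 tested genes. DESeq2 called 1 member, CR43250. In LP 1 gene was called (0.813%, against 1.45% of all tested genes, 0.343% higher and 1.11% lower). At an unadjusted p under 0.05 there were 8, beside 1492 of all 9037 tested genes. The median SE of the 123 log2 changes was 0.30 in each line, against 0.10 over all tested genes. For the difference between the lines in this contrast, 0 members were called (0% of all tested genes), and 0 by DESeq2. At an unadjusted p under 0.05 there were 5 members, beside 366 of all 9037 tested genes. Called the same way in both lines were 0 members, against 0.0111% of all tested genes higher and 0.177% lower.

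The gene called in LP was CR45756, which was named after its values were seen because it is the whole of that count. It had 0.259, 0.273 and 0.122 CPM in the LP diapause libraries and 0.659, 2.71 and 0.825 CPM in the LP reproductive libraries. The groups did not overlap, and replicate 2 of the reproductive group stood above the rest. The change was -2.64 (SE 0.61, adjusted p = 0.0446). The call was lost when any 1 of the 6 libraries was left out: the adjusted p was 0.14, 0.0512 and 0.225 without LP diapause replicates 1, 2 and 3, and 0.072, 0.211 and 0.0623 without LP reproductive replicates 1, 2 and 3. Without LP diapause replicate 2 another gene, CR44707, was called instead (-3.73, adjusted p = 0.0416). The same gene in HP had a change of -1.06 (SE 0.99, adjusted p = 0.63).

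For CR34335, the diapause and reproductive libraries did not overlap in either line, with log2 differences of 0.28 in HP (SE 0.09, adjusted p = 0.15) and 0.22 in LP (SE 0.09, adjusted p = 0.22). These did not pass the threshold in the fit to all 18 libraries. In fits to the 6 libraries compared, the adjusted p was 0.000817 in HP and 0.0115 in LP. Those narrower fits called 6 members in HP (CR34335, CR40469, CR44043, CR44953 and CR45596 higher and CR44845 lower in diapause) and 1 in LP, CR34335. These genes were likewise named after their values were seen.

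Against the age controls, a majority of the genes changed, at shares close to those of all tested genes. In HP 76 of 123 were called between diapause and age controls (61.8%, against 68.6% of all tested genes), with 52 higher and 24 lower in diapause. The shares of all tested genes were 34% higher and 34.7% lower. In LP 95 were called (77.2%, against 71.9%), with 60 higher and 35 lower, beside 36.6% and 35.3% of all tested genes. With total-count scaling in place of TMM the splits were 46 higher and 29 lower in HP and 49 and 42 in LP. Between reproductive ovaries at 12 °C and age controls, 78 were called in HP (63.4%, against 65.3%) and 90 in LP (73.2%, against 67.6%), with 51 and 55 of them higher at 12 °C (32.2% and 33.9% of all tested genes were higher, and 33.1% and 33.7% lower). The median log2 change from age control to diapause was 0.35 over the 123 genes in HP and 0.58 in LP, beside 0.01 and 0.03 over all tested genes. Among the 63 genes whose group mean reached 1 CPM in all 6 groups, 26 were called higher and 12 lower in HP diapause, and 31 and 16 in LP. Their medians were 0.34 and 0.35. All tested genes were not chosen by mean CPM, and the mean takes in more 12 °C than age-control libraries. The part of that choice in these contrasts was not tested.

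Changes called and over 2-fold were found for 55 members in HP (44.7%, against 20.6% of all tested genes) and 65 in LP (52.8%, against 24.8%). The part of the choice by mean CPM in this contrast was not tested. The SE of a member's change was larger, with a median of 0.30 against 0.10. By level, 17 of the 20 members at 10 CPM or more were called in HP, 34 of the 45 at 2 to 10 CPM, and 25 of the 58 under 2 CPM, and in LP 16, 39 and 40 of them. The asRNA: genes were called at 23 of 35 in HP and 27 of 35 in LP, and the lncRNA: genes at 53 of 88 and 68 of 88.

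**Figure D2:**
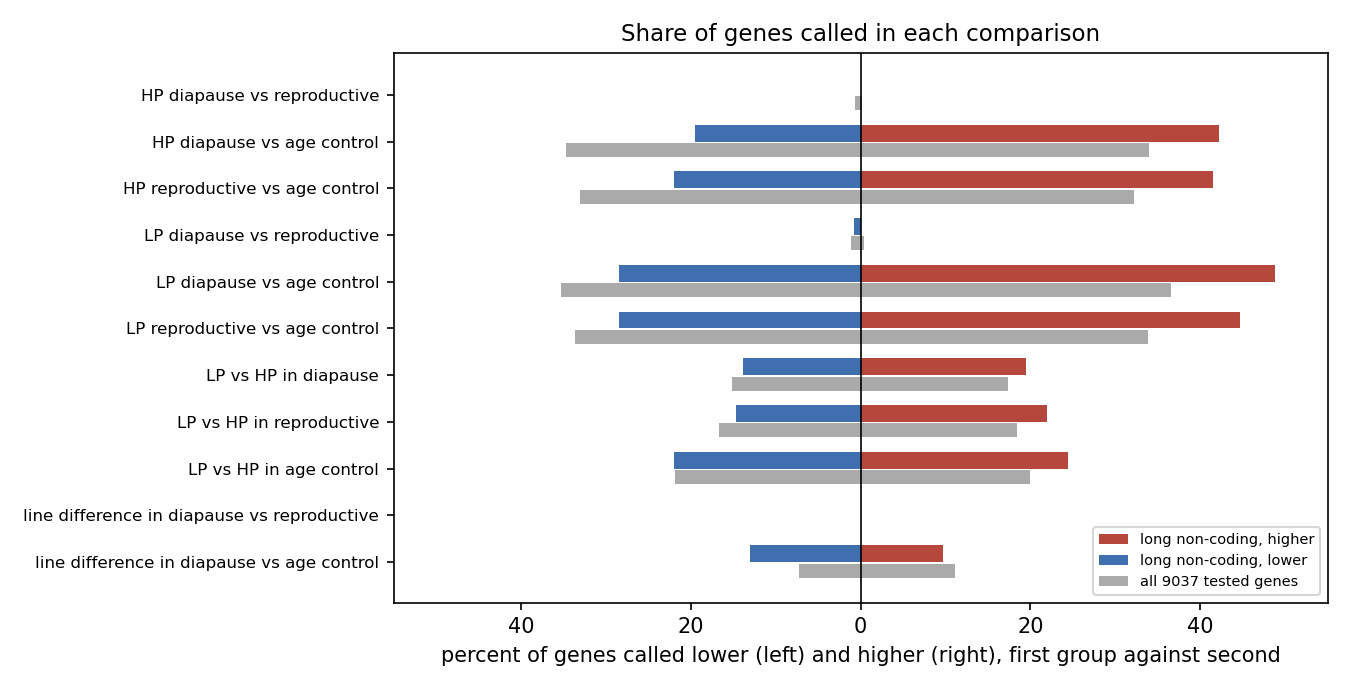
Percent of genes called (adjusted p under 0.05) lower, to the left, and higher, to the right, in the first-named group of each comparison or in the difference between the lines (LP minus HP). Coloured bars are the 123 long non-coding RNA genes and grey bars all 9037 tested genes; in comparisons with the age controls the coloured bars are longer to the right, and between diapause and reproductive ovaries both are near 0.

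Of the 123 genes, 65 were called in both lines between diapause and age controls (52.8%, against 58% of all tested genes). In both lines 41 were higher in diapause (27.3% of all tested genes were so called, and 33.3% of the members) and 20 were lower (29.1% of all tested genes, and 16.3% of the members). The HP and LP comparisons share no libraries. Across all 4 comparisons of 12 °C with 25 °C ovaries, which share age controls within a line, 38 were higher each time (22.9% of all tested genes), 19 lower each time (25.4%) and 12 called in none (13.5%). Among the 38 were mimi, CR34335, CR42862, CR44263 and CR41257, and among the 19 were dntRL, CR46472, CR43250 and CR43651.

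Several of the genes that rose were almost undetected at 25 °C. CR44263 (3R, 31758710 to 31759360, plus strand, 2 exon blocks) had 8.61, 10.01 and 8.61 CPM in HP diapause and 7.57, 7.89 and 7.99 CPM in HP reproductive, but 0.238, 0.138 and 0.373 CPM in HP age controls. In LP it had 6.07, 8.45 and 6.97 CPM in diapause, 6.23, 6.63 and 7.01 CPM in reproductive and 0.276, 0.321 and 0.207 CPM in age controls. The 12 libraries at 12 °C lay far above the 6 libraries at 25 °C, with no overlap. Diapause exceeded age controls by 5.15 (SE 0.24, adjusted p = 1.3e-12) in HP and by 4.72 (SE 0.24, adjusted p = 1.7e-12) in LP. Its start lies 44 bases from Smvt, a sodium-dependent vitamin transporter gene on the other strand. Smvt was near 0, with 1.32, 0 and 0.171 CPM in HP diapause and 0, 0 and 0.047 CPM in HP age controls. In LP age controls Smvt had 2.49, 0.046 and 0 CPM. The fitted changes of Smvt, 4.55 in HP (adjusted p = 0.067) and -0.17 in LP (adjusted p = 0.90), each rest mainly on 1 library.

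CR41257 (2R, 1070657 to 1071319, minus strand) showed the same pattern beside rolled (rl), the gene of the ERK MAP kinase. It had 4.37, 5.45 and 4.45 CPM in HP diapause and 0.334, 0.597 and 0.373 CPM in HP age controls, and 5.60, 6.27 and 5.25 CPM in LP diapause against 0.046, 0.138 and 0.165 CPM in LP age controls. It rose by 3.42 (SE 0.26, adjusted p = 4.4e-10) in HP and by 5.52 (SE 0.31, adjusted p = 4.1e-12) in LP. The rise was larger in LP by 2.10 (SE 0.45, adjusted p = 0.0025). The lines overlapped at 12 °C, and LP was lower than HP in the age controls (-1.83, SE 0.40, adjusted p = 0.0016). Its neighbour rl, on the opposite strand 143 bases away, changed the other way, by -0.72 and -0.65.

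CR43765 (2L, 203 bases from Nubpl) had 2.30 ± 0.80 CPM in HP diapause and 3.11 ± 0.47 CPM in LP diapause, against 0.0928 ± 0.093 and 0.182 ± 0.17 CPM in the age controls. It rose by 4.54 (SE 0.59) and 4.07 (SE 0.52). The single-exon gene mimi (3R) had 2.91 ± 0.24 CPM in HP diapause and 0.436 ± 0.055 CPM in HP age controls, and 5.73 ± 0.35 and 0.632 ± 0.11 CPM in LP, which are rises of 2.72 (SE 0.28) and 3.16 (SE 0.26). At 12 °C mimi was higher in LP than in HP, by 0.98 in diapause (adjusted p = 0.0024) and 1.00 in reproductive ovaries (adjusted p = 0.0021). CR44892, antisense to the carboxypeptidase gene svr, rose in diapause by 2.67 (SE 0.27) and 2.28 (SE 0.26), with 3.99 ± 0.75 CPM in HP diapause and 0.624 ± 0.081 CPM in HP age controls. CR46475 (3L), whose exons overlap the acetylcholine receptor subunit gene nAChRalpha4 on the other strand, rose in reproductive ovaries at 12 °C against age controls by 2.57 in HP (SE 0.34) and by 2.57 in LP (SE 0.36).

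A pair of genes beside Ilp8, and Ilp8 itself, fell in diapause. Ilp8 encodes a relaxin-like peptide that follicle cells of mature egg chambers make and that acts in ovulation. CR45756 (3L, 17032055 to 17032608, minus strand) shares 4.69% of its exon bases with Ilp8 on the same strand, and CR43250 (17033119 to 17033676, minus strand) lies 1039 bases from it. CR43250 had 0.120, 0.221 and 0.114 CPM in HP diapause, 0.762, 0.533 and 0.947 CPM in HP reproductive and 5.53, 5.19 and 8.30 CPM in HP age controls. In LP it had 2.02, 0.763 and 0.489 CPM in diapause, 1.02, 2.14 and 1.39 CPM in reproductive and 7.50, 9.12 and 10.4 CPM in age controls. The age controls did not overlap the 12 °C groups, whereas diapause and reproductive overlapped in LP.

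Against age controls, CR43250 fell in diapause by -5.37 (SE 0.50, adjusted p = 1.2e-08) in HP and -3.01 (SE 0.36, adjusted p = 2.6e-07) in LP. CR45756 fell by -4.71 (SE 0.71, adjusted p = 6.8e-06) and -3.82 (SE 0.59, adjusted p = 7.1e-06), from 2.34 ± 0.49 CPM in HP age controls and 3.21 ± 0.47 CPM in LP age controls. Ilp8 itself had 95.3 ± 9.33 CPM in HP age controls and 2.47 ± 0.60 CPM in HP diapause, and 82.6 ± 22.2 and 7.54 ± 6.44 CPM in LP, which are changes of -5.28 and -3.42. The 15 late eggshell genes moved in the same direction in these comparisons, with the summed levels given above. Their part in the fall of the pair was not tested.

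Other genes fell beside coding genes that moved either way. CR43837 (X, 873 bases from the gap junction gene Inx2) had 0.892 ± 0.41 CPM in HP diapause and 10.5 ± 0.31 CPM in HP age controls and fell by -3.59 (SE 0.30), and it fell by -2.38 (SE 0.29) in LP, while Inx2 rose by 0.34 in HP and 0.63 in LP. CR43460, antisense to rdx, which encodes a substrate adaptor of a Cullin-3 ubiquitin ligase, had 7.14 ± 0.89 CPM in HP age controls and 1.18 ± 0.38 CPM in HP diapause and fell by -2.57 (SE 0.24), and it had 3.91 ± 0.20 and 0.484 ± 0.059 CPM in LP, a called fall as well. Its partner rdx also fell, by -0.65 and -0.86. The named gene dntRL (2R) fell by -1.07 (SE 0.20) in HP, from 16.5 ± 2.8 to 7.93 ± 2.1 CPM, and by -0.66 (SE 0.20) in LP, from 9.30 ± 1.6 to 5.86 ± 0.83 CPM. CR44707 (X) was called in LP, from 5.19 ± 1.0 to 0.562 ± 0.74 CPM (-3.17, SE 0.77, adjusted p = 0.0016), and in LP diapause its highest library, at 1.42 CPM, was replicate 2, which was also the highest for the late eggshell genes.

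**Figure D3:**
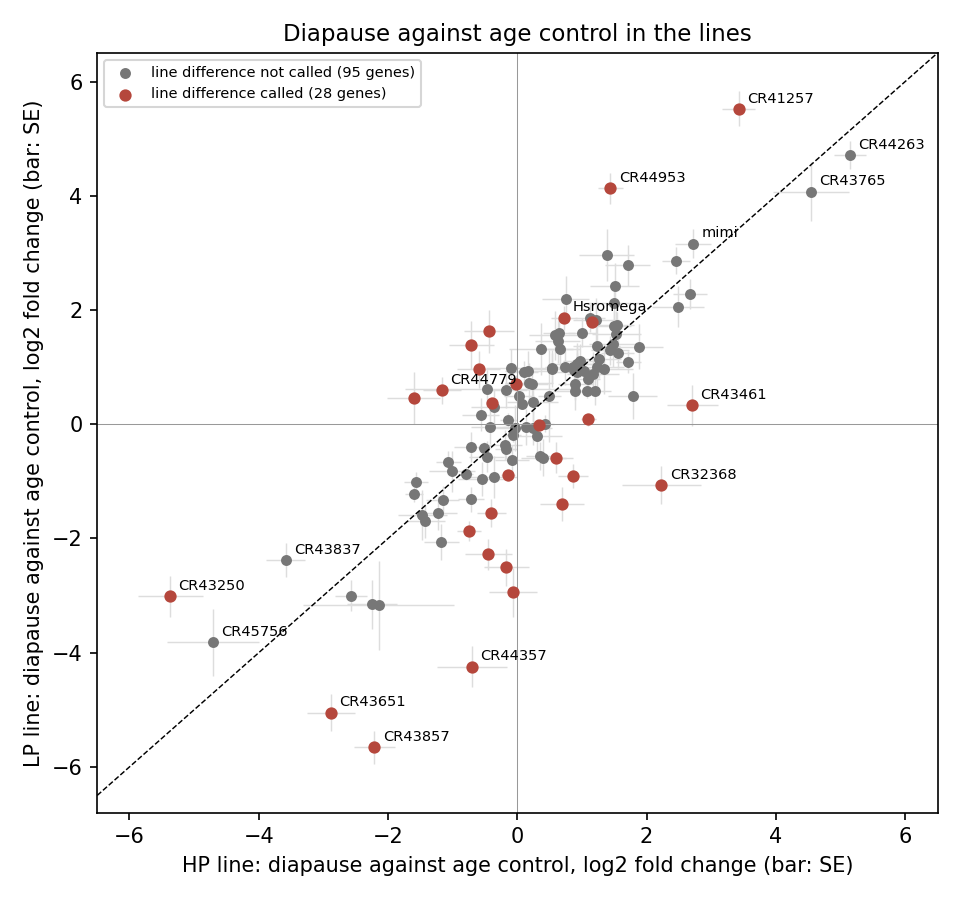
Log2 change from age control to diapause in HP (x axis) and LP (y axis) for each of the 123 genes, with bars of 1 SE and a dashed line where the lines are equal. Red points are the 28 genes whose change differed between the lines; CR44263, CR43765 and mimi lie near the dashed line, and CR43857, CR44357 and CR43651 lie far below it.

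The change from age control to diapause differed between the lines for 28 of the 123 genes (22.8%, against 18.4% of all tested genes). It was more positive in LP for 12 (11.1% of all tested genes) and more negative in LP for 16 (7.26%). In 4 genes the changes were called in opposite directions: CR32368, CR42549, CR43264 and CR44779. For 2 of them the LP change was no longer called with total-count scaling, at 0.14 for CR42549 (adjusted p = 0.124) and 0.37 for CR44779 (adjusted p = 0.164). The LP change of CR44779 also lost its call without a filter on low counts, with a replicate block, in a fit to the groups compared and without LP diapause replicate 2 or 3 or LP age-control replicate 2 or 3 (adjusted p = 0.05 to 0.155).

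Several genes were highest in LP age controls, beyond all other groups. CR43857 (2L, 7423820 to 7425932, plus strand) had 23.1, 20.6 and 27.3 CPM in the LP age controls and 2.19, 1.98 and 2.85 CPM in the HP age controls. In the 12 libraries at 12 °C its group means were 0.491 ± 0.13 and 0.686 ± 0.35 CPM in HP and 0.461 ± 0.18 and 0.570 ± 0.13 CPM in LP. It fell in diapause by -2.21 (SE 0.32) in HP and by -5.66 (SE 0.29) in LP, a difference of -3.45 (SE 0.49, adjusted p = 5.2e-05). CR44357 (X), which spans 7166451 to 7405797 on the minus strand and shares 24.4% of its exon bases with CG1677, had 10.5, 7.38 and 7.61 CPM in LP age controls and 0.334, 0.367 and 0.233 CPM in HP age controls. Its mean in the other LP groups was 0.441 ± 0.18 CPM in diapause and 0.954 ± 0.43 CPM in reproductive ovaries, and the line difference was -3.54 (SE 0.73, adjusted p = 0.0018).

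CR43626, CR45433 and CR43651 were also highest in LP age controls. CR43626 (3L) had 5.51 ± 0.29 CPM in LP age controls and between 0.888 and 1.15 CPM on average in the other 5 groups. CR45433 (3L) had 5.84 ± 1.1 CPM in LP age controls and 0.546 ± 0.12 CPM in HP age controls. CR43651 (2R) had 14.8, 14.2 and 19.3 CPM in LP age controls and 2.10, 2.48 and 2.98 CPM in HP age controls, and in both lines it was under 1 CPM in every library at 12 °C. The LP age controls also held the highest late eggshell sum of the 6 groups, with 6 of the 15 genes higher than in HP age controls (median 1.17) and 0 with a called line difference. Among all tested genes, 19.9% were higher in LP than in HP age controls. The change to diapause was called more positive in LP for 11.1% of all tested genes and more negative for 7.26%. Of the 13 muscle genes, 13 were higher in LP than in HP age controls (median 1.33), and for 12 the change to diapause was more negative in LP (median difference -1.50). The part of either list in these levels was not tested. Left out in turn, no library ended the call of CR43857, CR44357 or CR43651 in diapause against age controls in LP.

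In another set the LP age controls were the low group. CR44953 (3R, 29755190 to 29759040, minus strand) had 12.3, 10.6 and 9.91 CPM in HP diapause, 3.58, 4.78 and 3.73 CPM in HP age controls, 4.25, 4.47 and 6.36 CPM in LP diapause and 0.184, 0.275 and 0.372 CPM in LP age controls. It rose in diapause by 1.44 (SE 0.19) in HP and 4.13 (SE 0.27) in LP, a difference of 2.69 (SE 0.34, adjusted p = 1.5e-05). Hsromega (3R, 21296127 to 21317836, plus strand, 21710 exon bases, the longest of the 123 genes) had 86.7, 92.8 and 77.7 CPM in HP diapause and 58.3, 53.1 and 44.3 CPM in HP age controls. In LP it had 63.1, 96.7 and 79.6 CPM in diapause, 46.0, 69.0 and 90.2 CPM in reproductive and 21.4, 23.8 and 20.4 CPM in age controls. It rose by 0.72 (SE 0.20, adjusted p = 0.0051) in HP and 1.87 (SE 0.21, adjusted p = 1.6e-06) in LP, and the difference of 1.14 (SE 0.29) was called (adjusted p = 0.013). Its neighbour aus, on the other strand 464 bases away, rose by 1.01 and 1.30. At 12 °C the lines overlapped for Hsromega, and LP was below HP in age controls by -1.25 (SE 0.21, adjusted p = 0.00025).

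Of 10 tested genes for hnRNPs and other proteins linked to the omega speckles, 5 were higher and 3 lower in diapause than in age controls in HP, and 6 and 3 in LP, with medians of 0.26 and 0.23, beside 34% higher and 34.7% lower of all tested genes in HP and 36.6% and 35.3% in LP. The hnRNP genes Hrb27C (0.62 in HP and 0.69 in LP) and sqd (0.44 and 0.58) rose in both lines. Hsf, the transcription factor of the heat shock response, fell by -0.85 and -0.88.

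Some other genes with a line difference changed direction between the lines or were called in 1 line. CR42549 (3R), of which 4.93% of exon bases are shared with the ubiquitin ligase gene mura, had 43.3 ± 0.87 CPM in HP diapause and 57.1 ± 2.3 CPM in HP age controls, but 46.9 ± 4.2 and 36.3 ± 2.2 CPM in LP, which is -0.40 and 0.37 (difference 0.77, SE 0.12, adjusted p = 0.00014). CR43264 (X) rose by 0.86 in HP and fell by -0.91 in LP (difference -1.77, SE 0.32). CR31044 (3R) rose by 1.09 (SE 0.12) in HP, from 8.71 ± 1.1 to 18.6 ± 0.46 CPM, and had a change of 0.08 (SE 0.11, adjusted p = 0.52) in LP. CR43461 (X), within the span of CG3168, had 2.67 ± 0.35 CPM in HP diapause and 0.403 ± 0.28 CPM in HP age controls, a rise of 2.71 (SE 0.39), and 1.59 ± 0.42 against 1.27 ± 0.11 CPM in LP.

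**Figure D4:**
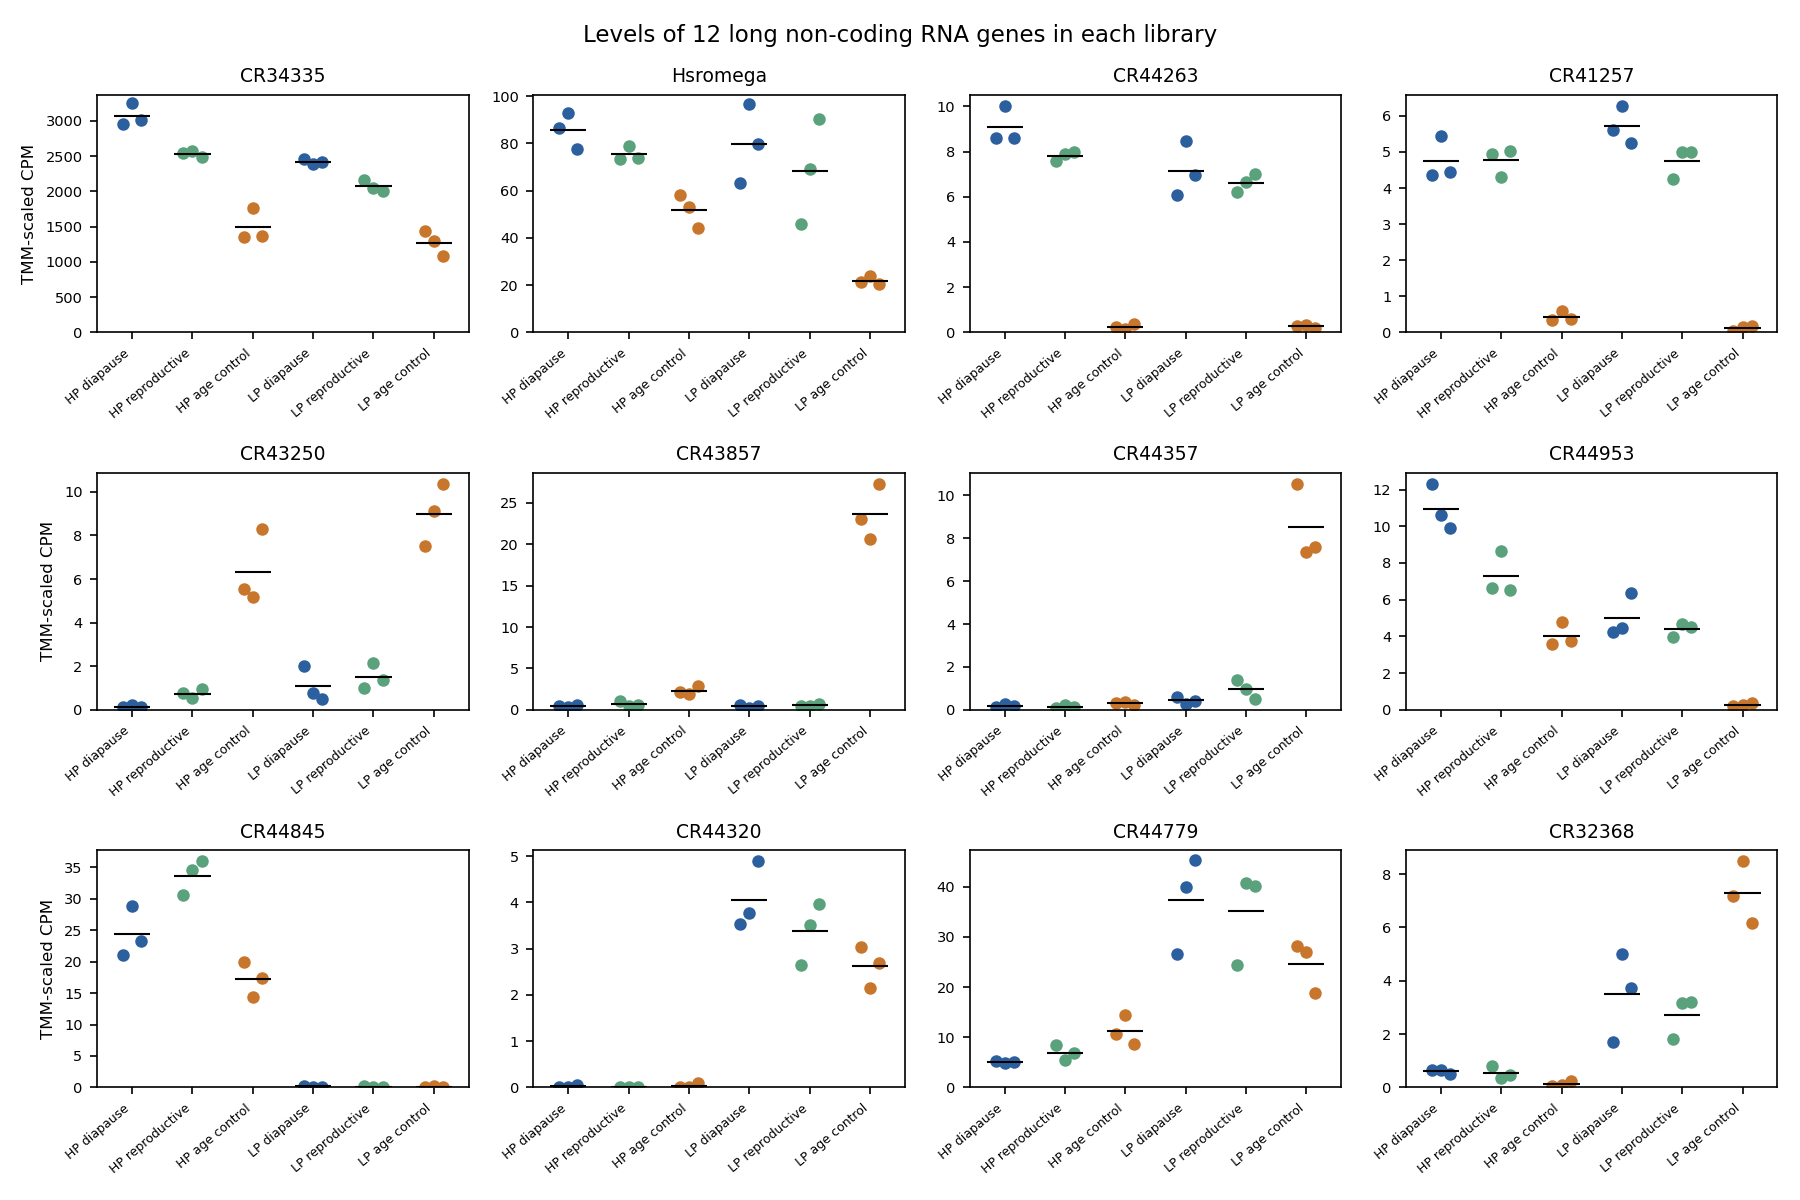
TMM-scaled CPM (y axes from 0, each with its own range) of 12 long non-coding RNA genes in the 6 groups; points are libraries and horizontal lines are means of 3 libraries. CR44263 and CR41257 are near 0 in the age controls, CR43857 and CR44357 are high in the LP age controls, CR44845 is near 0 in LP and CR44320 is near 0 in HP.

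The lines differed in a share of these genes close to that of all tested genes. LP against HP gave 41 called genes in diapause (33.3%, against 32.6% of all tested genes), 45 in reproductive ovaries (36.6%, against 35.1%) and 57 in age controls (46.3%, against 41.9%). LP was higher for 24, 27 and 30 of them (17.4%, 18.4% and 19.9% of all tested genes) and lower for 17, 18 and 27 (15.2%, 16.7% and 21.9%). In all 3 states 25 were called (20.3%, against 16.2% of all tested genes), 13 with LP higher (7.87% of all tested genes) and 12 with LP lower (7.26%). In 49 of the 123 no state gave a call, and 60.2% of the members were called in at least 1 state, against 60.4% of all tested genes.

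CR44845 and CR44320 were each near 0 in 1 line. CR44845 (2L, 10208741 to 10209786, plus strand) had 21.1, 28.8 and 23.3 CPM in HP diapause, 30.5, 34.5 and 35.97 CPM in HP reproductive and 19.97, 14.4 and 17.4 CPM in HP age controls. In LP it had 20 counts in all 9 libraries together, against 4141 counts in the 9 HP libraries. LP was lower than HP by -7.30 in diapause (SE 0.33, adjusted p = 2e-12), -8.45 in reproductive ovaries (SE 0.34) and -7.30 in age controls (SE 0.34). The LP groups held 8, 5 and 7 counts in these states, so the size of the differences is less certain than the SE shows. The coding gene CG5731 on the opposite strand, with which CR44845 shares 33.2% of its exon bases, showed the same contrast, with 21664 counts in HP and 47 in LP and log2 differences of -8.48, -9.33 and -8.87. Whether reads of LP differ from the reference sequence at this place was not tested.

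CR44320 (3R, 26195250 to 26230268, plus strand, 3 exon blocks) had 3.53, 3.76 and 4.89 CPM in LP diapause, 2.64, 3.52 and 3.97 CPM in LP reproductive and 3.04, 2.15 and 2.69 CPM in LP age controls. In HP it had 3 counts in 9 libraries, with 0 in the reproductive group. With the HP group set to its floor of 3 counts in total, LP reproductive ovaries were at least 63.6-fold higher than HP. In diapause the ratio was 192 (95% exact interval 34.2 to 7630, from 217 counts and 1), and in age controls it was 84.4 (23.0 to 702, from 178 counts and 2). These intervals cover counting error alone. CR44320 shares 1.94% of its exon bases with CG12290 on the same strand, which was higher in LP by 1.56 in diapause, 1.39 in reproductive ovaries and 1.94 in age controls and was present in both lines (30.9 ± 0.63 CPM in HP diapause and 90.8 ± 5.4 CPM in LP diapause).

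Further genes were higher in LP in each state. CR44779 (X, 1047242 to 1088866, plus strand) had 5.20, 4.86 and 4.96 CPM in HP diapause and 26.6, 39.95 and 45.3 CPM in LP diapause, a difference of 2.89 (SE 0.28, adjusted p = 1.9e-06), which was smaller in age controls (1.13, SE 0.25), where HP had 11.2 ± 3.0 and LP 24.6 ± 5.1 CPM. CR32368 (3L, 7915437 to 7915846) showed the reverse order of sizes, with 0.611 ± 0.085 CPM in HP diapause and 3.48 ± 1.7 CPM in LP diapause (2.50, SE 0.41), but 0.124 ± 0.097 and 7.27 ± 1.2 CPM in age controls (5.79, SE 0.48, adjusted p = 9.9e-09). CR32385 (3L), within the span of the G protein gene Galphai, had 1.86 ± 0.44 CPM in HP and 8.14 ± 0.10 CPM in LP diapause (2.12, SE 0.22). CR43256 (2R), within the span of gus, was higher in LP by 1.96, 2.92 and 2.46 in diapause, reproductive and age-control ovaries, and CR42874 (2L) by 2.40, 1.62 and 1.77. Of the named genes, noe was called higher in LP in diapause alone (1.45, SE 0.36, adjusted p = 0.0042).

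Several antisense genes were lower in LP. CR42254, antisense to the insulator protein gene BEAF-32, had 11.8, 10.5 and 10.5 CPM in HP diapause and 2.28, 3.98 and 1.71 CPM in LP diapause, a difference of -2.03 (SE 0.24, adjusted p = 1.5e-06). BEAF-32 was higher in LP by 0.23 in the same comparison. CR44370, antisense to Fs, which encodes the activin antagonist follistatin, was lower in LP by -1.84 (SE 0.27), -2.14 (SE 0.28) and -1.97 (SE 0.29) in the 3 states, with 9.43 ± 2.1 CPM in HP and 2.64 ± 0.44 CPM in LP diapause. Fs was lower too, by -0.98, -0.80 and -0.84. CR43481, which shares 45.4% of its exon bases with the small heat shock protein gene Hsp67Ba, was lower in LP by -1.89, -1.73 and -1.01. In all, 4 of 35 asRNA: genes were higher and 7 lower in LP in diapause, 3 and 6 in reproductive ovaries and 2 and 12 in age controls. Of the 88 lncRNA: genes, 20 were higher and 10 lower in diapause, 24 and 12 in reproductive ovaries and 28 and 15 in age controls. The shares of all tested genes were 17.4% higher and 15.2% lower, 18.4% and 16.7%, and 19.9% and 21.9%.

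Coding neighbours moved with the non-coding genes in some cases and against them in others. Of the 123 genes, 109 had an overlapping or nearest coding gene that was tested. Of the 68 such genes called in HP between diapause and age controls, the neighbour was called in the same direction for 30, in the opposite direction for 21, and was not called for 17. In LP the numbers were 34, 29 and 21 of 84. Among all tested genes, 34% were called higher and 34.7% lower in HP, and 36.6% and 35.3% in LP, so many neighbours are called in either direction for any gene. As a description across genes, which share libraries and local sequence, Pearson's r between the log2 changes of gene and neighbour was 0.42 in HP (Spearman's rho 0.17, n = 109 genes) and 0.18 in LP (rho 0.20). In HP, CR43250 and CR45756, which share the neighbour Ilp8, lay far from most other genes. So did CR44263, whose neighbour Smvt averaged under 1 CPM in each group. For LP against HP in diapause r was 0.52 and rho 0.20, with CR44845 and CG5731 far from all others.

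**Figure D5:**
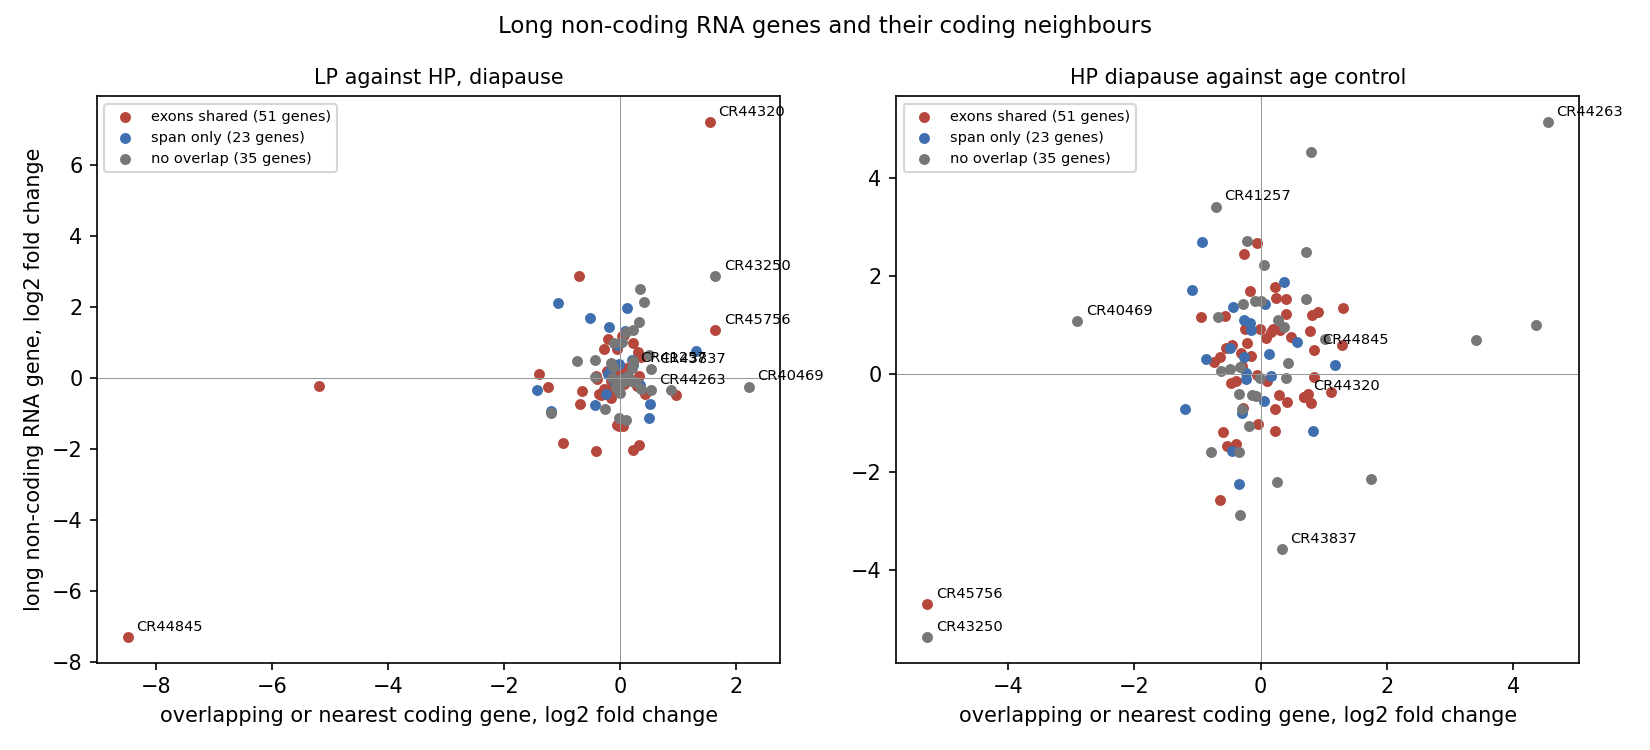
Log2 change of each long non-coding RNA gene (y axis) against that of its overlapping or nearest coding gene (x axis) for LP against HP in diapause (left) and for HP diapause against age control (right), coloured by overlap; 109 genes with a tested neighbour are drawn. CR44845 lies at the lower left in the first panel and CR43250 and CR45756, beside Ilp8, at the lower left in the second, with most other points near a neighbour change of 0.

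Genes of pathways that act on non-coding RNAs were counted in the same fits, beside 34% higher and 34.7% lower of all tested genes in HP and 36.6% and 35.3% in LP. Of 14 genes of the RNA exosome and nuclear RNA surveillance, which degrade non-coding transcripts, 11 were higher and 0 lower in diapause than in age controls in HP, and 12 and 0 in LP, with medians of 0.44 and 0.72 beside 0.01 and 0.03 over all tested genes. Pabp2 (1.11 in HP and 1.06 in LP), Rrp40 (1.23 and 1.21) and Ski6 (1.13 and 1.26) rose in both lines. Of 6 MSL dosage compensation genes, whose complex binds the roX RNAs in males, 2 were higher and 4 lower in each line, with msl-2 at 0.77 and 1.08 and msl-3 at -1.29 and -1.42. Of 15 tested somatic piRNA pathway genes, 4 were higher and 9 lower in HP and 5 and 8 in LP, with fs(1)Yb at 0.61 and 1.56 and vret at -1.35 and -1.29. Of 12 tested genes for transcription of germline piRNA clusters and their piRNAs, 6 were higher and 4 lower in HP and 5 and 5 in LP, and cuff (0.48 and -0.53) and rhi (0.35 and -0.22), both parts of the complex that licenses cluster transcription, were called in opposite directions. Between diapause and reproductive ovaries, 1 gene of these lists was called, daed of the somatic piRNA list in LP (-0.28).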

How the data were processed

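RNA was measured by poly-A-selected, directional RNA-seq, per the labels' protocols. The deposited values are whole-number read counts per gene; per the submitters' processing notes the authors used STAR, featureCounts, Trimmomatic and DESeq2, with neither version nor role given. The genome build, strand setting and treatment of reads matching several places are not given in the sources used here, and coordinates are those of the deposited table, identical to BDGP6.54 for all 123 genes. Symbols came from a FlyBase gene table.

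Counts were fitted with edgeR 4.0.16 (R 4.3.3, limma 3.58.1; robust quasi-likelihood, TMM scaling, filterByExpr) to all 18 libraries with 1 mean per group, 12 residual degrees of freedom and Benjamini-Hochberg adjustment over 9037 genes. A gene is called at an adjusted p under 0.05. Every adjusted p in the text is from this edgeR fit unless DESeq2 1.42.0 or another fit is named. Positive log2 changes mean higher in the first-named group. Each SE is the absolute log2 change divided by the square root of the F statistic of its test. Where a group is near 0 counts, it can understate the uncertainty of the change. The fit was tested on simulated data. Replicates are labelled biological, and each p measures the spread between these libraries. Library totals ranged from 14352846 to 21343992 counts, and intervals cover counting error only.

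The genes, the pathway lists and the marker lists were chosen with earlier results of these data known. Genes named are those with a name other than a CR number, the 10 highest in mean CPM, up to 5 largest called rises and falls per comparison whose groups do not overlap and of which one averages 2 CPM or more, up to 5 line differences of smallest p, genes under 0.1 CPM in a line, and those at the threshold; the few others were named after their values were seen. Alternatives were other scaling, no filter, a replicate block, DESeq2, fits to the groups compared, other thresholds and leaving out each library.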

Additional observations from a re-analysis of the deposited data

Results flagged for a closer look

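The change from age control to diapause differed between the lines, by the interaction term of the edgeR fit, for 28 genes. The values below are the LP change minus the HP change on the log2 scale. The change was more positive in LP for 12 genes: CR44953 (2.69), CR43250 (2.36), CR41257 (2.10), CR44119 (2.10), CR45949 (2.06), CR46481 (2.06), CR44779 (1.76), CR46487 (1.55), Hsromega (1.14), CR42549 (0.77), CR45409 (0.73) and CR46064 (0.63). It was more negative in LP for 16 genes: CR44357 (-3.54), CR43857 (-3.45), CR32368 (-3.29), CR45036 (-2.88), CR43461 (-2.38), CR43626 (-2.34), CR43651 (-2.16), CR44289 (-2.09), CR45433 (-1.82), CR43264 (-1.77), CR45018 (-1.19), CR43144 (-1.15), CR31781 (-1.13), CR31044 (-1.01), CR43836 (-0.74) and CR30055 (-0.35). In 12 of the 28 the fitted changes had opposite signs in the lines, and in 4 of these both changes were called. The 12 include changes near 0, such as CR30055 in LP (-0.01) and CR45409 in HP (-0.02). The line difference of 8 of these genes lost its call with 1 library left out. For CR30055 the values are given above. For CR43651 the adjusted p was 0.0546 without HP diapause replicate 1. For CR43250 it was 0.0666 to 0.0943 without HP diapause replicate 1 or 3 or LP diapause replicate 1. For CR43144 it was 0.0506 to 0.0538 without HP age-control replicate 1, LP diapause replicate 3 or LP age-control replicate 2. For CR46487 it was 0.0516 to 0.0657 without HP diapause replicate 3, HP age-control replicate 1 or LP diapause replicate 3. For CR46481 it was 0.051 to 0.123 without HP diapause replicate 3, LP diapause replicate 3 or LP age-control replicate 2. For CR45409 it was 0.0511 to 0.0799 without HP diapause replicate 3, HP age-control replicate 1 or 2, or LP age-control replicate 2 or 3, and 0.0607 in a fit to the groups compared. For CR45018 it was 0.0607 to 0.0835 without HP diapause replicate 3, HP age-control replicate 2 or 3, LP diapause replicate 1 or 3 or LP age-control replicate 1, 0.0576 without a filter on low counts and 0.0632 in a fit to the groups compared.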

How the results depend on the processing

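Of 160 called changes of single long non-coding RNA genes that the text rests on, 75 of them chosen by the naming rule, 0 reversed and 16 lost their call in at least 1 setting. Direction and side of the threshold held in 941 of 958 comparisons with other settings and in 1074 of 1128 with 1 library left out. Of the 16, 14 are given with their values above. The other two are Hsromega in HP reproductive ovaries against age controls, lost with total counts (adjusted p = 0.0727), no filter (0.0603) and without HP reproductive replicate 1, 2 or 3 or HP age-control replicate 2 or 3 (0.0531 to 0.116), and CR45756 in LP reproductive ovaries against age controls, lost with DESeq2 (adjusted p = 0.0522) and without LP reproductive replicate 1 (0.14) or 3 (0.135) or LP age-control replicate 2 (0.0798). Between diapause and reproductive ovaries, DESeq2 called 1 gene in HP, and fits to the groups compared called 6 in HP and 1 in both lines. In the same contrast a replicate block left 0 in LP, and leaving out libraries gave 0 to 1 in LP. Same-numbered libraries showed little shared deviation (45 pairs, r from -0.156 to 0.164, 2 over 0.1, both among the 18 same-line pairs). With 3 libraries per group, this check cannot exclude a pairing by number. The replicate block gave 76 calls in HP and 93 in LP for diapause against age controls. Leaving out 1 library gave 70 to 75 calls in HP and 85 to 92 in LP for diapause, 64 to 72 and 81 to 87 for reproductive ovaries, 36 to 40, 34 to 43 and 52 to 57 for LP against HP in diapause, reproductive and age-control ovaries, and 22 to 31 for the line difference. The threshold of 1 CPM gave 122 to 125 genes with 1 library left out, 0.5 CPM gave 198 and 2 CPM gave 65. Summed levels with TMM scaling were 5439, 4882 and 3094 CPM in HP diapause, reproductive and age controls, and 4780 and 2870 CPM in LP diapause and age controls. Without CR34335 they were 2242, 2283, 1676, 2237, 2190 and 1777 CPM in the 6 groups, HP first. The TMM-scaled sums without CR34335 and CR42862 were an alternative chosen after seeing the data. With 1 library left out the sums of all 123 genes ranged from 5094 to 5246, 4709 to 4797, 3163 to 3300, 4522 to 4541, 4155 to 4277 and 3087 to 3352 CPM. Total-count scaling in place of TMM shifts every log2 change against age controls by -0.146 (diapause) and -0.111 (reproductive) in HP and by -0.229 and -0.187 in LP. The cause of these differences between settings was not tested. Low counts limit the genes under 2 CPM most.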

Other observations

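CR45082 and CR46472 are neighbours on X, 157 bases apart on opposite strands, and both fell in diapause against age controls in each line. CR45082 (minus strand, named after its values were seen) averaged 0.523 CPM in HP diapause and 2.50 CPM in HP age controls, and 0.231 and 2.17 CPM in LP. It fell by -2.25 (SE 0.38, adjusted p = 2.99e-05, edgeR) in HP and -3.16 (SE 0.42) in LP.

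CR42491 (X) shares 50.5% of its exon bases with the ribosomal protein gene RpL22 on the same strand. RpL22 was lower in LP than in HP by -1.39, -2.83 and -2.13 in diapause, reproductive and age-control ovaries. The LP libraries lay below the HP libraries in each state but varied widely. RpL22 had 1328, 741 and 716.5 CPM in LP diapause and 531, 305.5 and 133 CPM in LP age controls. For CR42491 the differences between the lines were 0.12, 0.35 and 0.06 in the same 3 states, none of them called by edgeR.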
